A study of Mus musculus with 12 samples.

Results

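*Olfr1507*, *Olfr1508* and *Olfr1509*, also named MOR28, MOR10 and MOR83, are class II odorant receptor (OR) genes of the MOR28 cluster on mouse chromosome 14. They were chosen by name, as known targets of the H element, and each is read by 1 probe set, a group of array probes, so they make up 3 of 35556 probe sets and 3 of 1007 class II OR probe sets. Their mRNA was measured in total RNA from the main olfactory epithelium, or MOE. There were 6 ΔJ and 6 wild-type mice, each with its own Affymetrix Mouse Gene 1.0 ST array. ΔJ mice are homozygous for a CRISPR-Cas9 deletion of the J element, the enhancer beside the class I OR genes on chromosome 7, and the wild-type mice are littermates. The ΔJ line descends from 1 founder made in B6C3F1 eggs, a hybrid of C3H/HeSlc and C57BL/6NCrSlc. It was backcrossed to C57BL/6NCrSlc, and the labels give C57BL/6 for every mouse. The parents were heterozygotes of the second backcross, so both genotypes can still carry C3H/HeSlc segments. The ΔJ group held 3 males and 3 females, 1 at P33 and 5 at P30, and the wild-type group held 2 males and 4 females, 2 at P33 and 4 at P30.

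An olfactory sensory neuron (OSN) expresses 1 OR gene from 1 allele, and enhancers scattered over the genome take part in this choice. The H element lies beside the MOR28 cluster and acts in *cis*. Mice without it lose expression of the 3 genes nearest to it, which are the genes described here, while the more distant genes of the cluster retain some. *Olfr1507* is a receptor of the ventral MOE. Class I ORs form a separate, more ancient group whose genes lie in a single cluster and whose OSNs reside in the dorsal MOE. The comparison of ΔJ with wild-type mice therefore asks, for these 3 genes, whether loss of a class I enhancer on another chromosome is accompanied by a change in class II genes that have an enhancer of their own.

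RefSeq places the MOR28 cluster of 7 protein-coding OR genes within 146.593 kb of chromosome 14 (GRCm38.p6). *Olfr1509* spans chr14:52450393-52451402, *Olfr1508* chr14:52462721-52467461 and *Olfr1507* chr14:52489935-52495695. *Olfr1507* is the last OR gene at that end of the cluster. *Olfr1508* ends 22.47 kb before *Olfr1507* begins and *Olfr1509* 38.53 kb before it, while the other 4 genes, *Olfr1510* to *Olfr1513*, end 79.01 to 139.9 kb before it. Each of the 3 probe sets carried a single symbol in the array annotation, 10419723 for *Olfr1507*, 10419719 for *Olfr1508* and 10414700 for *Olfr1509*. The other genes of the cluster shared 4 probe sets, 2 of them with symbols of 2 genes.

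RefSeq sequences upstream of the annotated start were used for 2 of the 3 genes. They are shown because OR enhancers and promoters are read by homeodomain factors such as Lhx2 and by Ebf factors. The 250 bases are written 5′ to 3′, and capitals mark homeodomain motifs. The motif searched on both strands was TAAT followed by TA, TG, GA or GG. The *Olfr1508* sequence lies on the minus strand at chr14:52467462-52467711 and the *Olfr1509* sequence on the plus strand at chr14:52450143-52450392, both in GRCm38.p6.
Olfr1508: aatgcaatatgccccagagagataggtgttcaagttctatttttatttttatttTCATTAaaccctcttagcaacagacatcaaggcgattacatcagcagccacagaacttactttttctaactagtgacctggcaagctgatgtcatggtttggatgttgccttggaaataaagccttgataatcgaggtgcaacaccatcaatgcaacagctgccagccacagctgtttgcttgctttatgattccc
Olfr1509: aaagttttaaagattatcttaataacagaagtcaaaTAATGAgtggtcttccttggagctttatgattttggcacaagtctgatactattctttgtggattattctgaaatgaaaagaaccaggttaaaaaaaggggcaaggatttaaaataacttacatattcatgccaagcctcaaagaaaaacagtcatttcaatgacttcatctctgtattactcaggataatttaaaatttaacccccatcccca
Each sequence held 1 match, TCATTA on the written strand of *Olfr1508*, which is TAATGA read on the other strand, and TAATGA on the written strand of *Olfr1509*. They began 196 and 214 bases before the start. A match occurred in 57.4% of the 948 windows of this length before OR genes and in 22.8% of the 32851 windows before genes of all kinds. The palindromic Ebf core CCCNNGGG was found in neither, and it occurred in 2.74% of the OR windows and 11.8% of all windows. The study used another motif, the O/E-like site YYYCARRRR (Y is C or T, R is A or G). That motif was not searched here, so a window without CCCNNGGG can still hold it. The annotated *Olfr1509* model is 1010 bp long, against 4741 bp for *Olfr1508*, and its annotated start may not be the start of transcription.

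The authors deposited log2 signals. From each array its 75th percentile was subtracted, and the difference is called the level below. The percentile itself lay between 8.40 and 8.56 in ΔJ mice and between 8.38 and 8.55 in wild-type mice. Levels of different probe sets are not compared. The arrays of replicates 1 to 3 and of replicates 4 to 6 differed in the spread of their values, with 3 ΔJ and 3 wild-type mice in each set, and limma with genotype in the model separated the sets in 42.2% of all probe sets (adjusted p under 0.05). ΔJ replicate 5 stood apart from the other mice. Its median correlation with its own set over class II OR probe sets was 0.950, against 0.979 to 0.989 in the other 11 mice, so results are also given without it. The deletion was visible in class I genes of every ΔJ mouse. *Olfr544*, next to the J element, lay between -3.55 and -3.27 in ΔJ mice and between -1.75 and -1.41 in wild-type mice, a log2 fold change of -1.84 (SE 0.08, adjusted p = 2.5e-07, limma). Of 126 intact class I genes, 44 were called lower in ΔJ mice and 0 were called higher. By sign alone, 116 were lower and 10 higher. A call here needs an adjusted p under 0.05 and a change of more than 1.3-fold.

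No difference of *Olfr1507* between genotypes passed the test. Its levels in ΔJ replicates 1 to 6 were 2.26, 1.65, 2.23, 2.00, 1.35 and 2.06, against 1.97, 1.90, 2.21, 1.89, 2.03 and 1.78 in wild-type replicates 1 to 6. Replicates 1 and 3 of the ΔJ group were above all wild-type mice, replicates 2 and 5 were below all of them, and the groups overlapped. The mean was 1.92 ± 0.36 in ΔJ mice and 1.96 ± 0.15 in wild-type mice (SD, n = 6 each). The log2 fold change was -0.04 (SE 0.15, 95% confidence interval -0.36 to 0.28, adjusted p = 0.994, limma). In the measured signal this is 97.3% of wild-type, with an interval of 78.1% to 121%.

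*Olfr1508* did not pass the test either. Its levels in ΔJ replicates 1 to 6 were 1.31, 0.82, 1.27, 1.21, 0.42 and 1.16, against 1.08, 1.04, 1.25, 0.91, 1.17 and 1.05 in wild-type replicates 1 to 6. The ΔJ mice again held both the highest and the lowest values of the 12 mice, with replicates 2 and 5 lowest. The mean was 1.03 ± 0.35 in ΔJ mice and 1.08 ± 0.12 in wild-type mice (SD, n = 6 each). The log2 fold change was -0.05 (SE 0.14, 95% confidence interval -0.36 to 0.25, adjusted p = 0.993, limma), which is 96.6% of the wild-type signal with an interval of 78.2% to 119%.

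*Olfr1509*, the member farthest from the end of the cluster, also did not pass the test. Its levels in ΔJ replicates 1 to 6 were -0.39, -1.10, -0.49, -0.60, -1.28 and -0.63, against -0.62, -0.77, -0.62, -0.78, -0.88 and -0.77 in wild-type replicates 1 to 6. Replicates 2 and 5 of the ΔJ group were once more below every wild-type mouse, and the groups overlapped. The mean was -0.75 ± 0.36 in ΔJ mice and -0.74 ± 0.10 in wild-type mice (SD, n = 6 each). The log2 fold change was -0.01 (SE 0.14, 95% confidence interval -0.32 to 0.30, adjusted p = 0.998, limma). The measured signal was 99.5% of wild-type, with an interval of 80.4% to 123%.

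**Figure D1:**
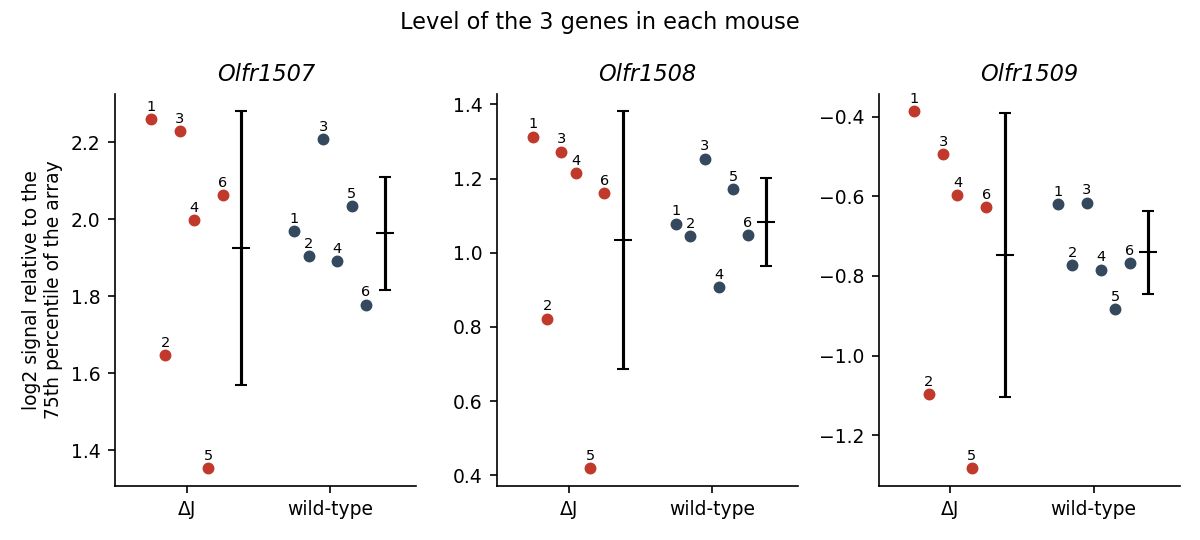
Level of *Olfr1507*, *Olfr1508* and *Olfr1509* (log2 signal relative to the 75th percentile of the array, vertical axis, a scale per gene) in each ΔJ and wild-type mouse. Points are mice with their replicate number, and bars are the mean and SD of 6 mice. ΔJ replicates 2 and 5 lie below all wild-type mice in each panel, and the other ΔJ mice lie within or above the wild-type range.

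Thus 0 of the 3 genes passed the test in either direction. The same rule called 0.135% of all probe sets, 0% of class II OR probe sets, and 34.9% of intact class I genes as lower. Of the 1007 class II probe sets, 9 had an unadjusted p under 0.05 (limma), fewer than that threshold gives by chance alone. Array set was not in this model, although 53.5% of class II OR probe sets differed between the sets. Its part in the low count was not tested, so the count does not show that class II genes are unchanged. The groups did not overlap in 0 of the 3 genes, in 0.301% of all probe sets and in 0% of class II OR probe sets. When OR probe sets were fitted alone, 73 intact class I genes were called, 72 of them as lower (57.1% of intact class I genes). In that fit 0% of class II probe sets and 6.43% of all OR probe sets were called. A p that misses the threshold does not show equality, and the intervals bound the change in the mean, at 78.1% to 80.4% of the wild-type signal on the low side and 119% to 123% on the high side. They assume the same spread in both genotypes. The SD was larger in ΔJ mice, 0.36 against 0.15 for *Olfr1507*, so these bounds may be too tight. Since the direction of the small differences turned for *Olfr1507* and *Olfr1509* under another scaling and for all 3 genes without ΔJ replicate 5, no direction is read from them. In RNA of a whole epithelium, fewer OSNs with a receptor and less mRNA per OSN cannot be told apart.

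**Figure D2:**
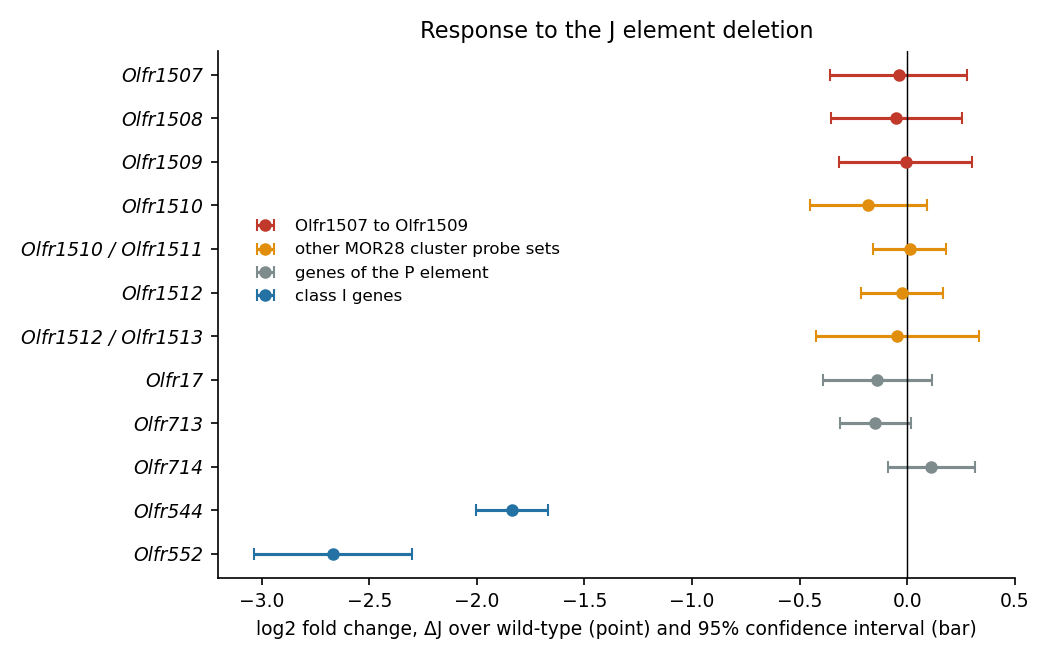
Log2 fold change of ΔJ over wild-type mice (horizontal axis, points) with its 95% confidence interval (bars) for the 3 genes, the other probe sets of the MOR28 cluster, the genes of the P element and a pair of class I genes. Intervals of the 3 genes lie between -0.36 and 0.30 and include 0, whereas *Olfr544* and *Olfr552* are at -1.84 and -2.67.

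The difference in response between these genes and class I genes was tested directly, as the level of each gene minus the mean level of the 126 intact class I genes in the same mouse. The class I mean was -2.30 ± 0.16 in ΔJ mice and -1.70 ± 0.16 in wild-type mice (SD, n = 6 each). For *Olfr1507*, the difference ran between 3.82 and 4.45 in ΔJ mice and between 3.58 and 3.87 in wild-type mice. For *Olfr1508* it ran between 2.95 and 3.66 in ΔJ mice and between 2.69 and 3.01 in wild-type mice. The groups overlapped for both of these genes. For *Olfr1509* it ran between 1.08 and 1.85 in ΔJ mice and between 0.82 and 1.05 in wild-type mice, with no overlap. The means were higher in ΔJ mice by 0.56, 0.55 and 0.59 on the log2 scale for *Olfr1507*, *Olfr1508* and *Olfr1509*. Two-sided exact permutation tests over the 924 splits of the mice gave p = 0.0043, 0.0065 and 0.0022, where 0.0022 is the smallest possible, and each was 0.0065 after Benjamini-Hochberg adjustment over the 3 genes. Taken within the 6 pairs of one replicate number, the difference was higher in the ΔJ mouse in 6 of 6 pairs for *Olfr1507* and *Olfr1509* and in 5 of 6 for *Olfr1508*. The mice of a pair were of the same sex only in replicate 4, and the labels give no matching beyond the number. An exact permutation test over the 64 sign changes of the pair differences gave adjusted p = 0.0469 for *Olfr1507* and *Olfr1509*, at the smallest possible unadjusted p of 0.0312, and adjusted p = 0.0625 for *Olfr1508*, which no longer passed. Within replicates 1 to 3 the differences were 0.60, 0.60 and 0.60, and within replicates 4 to 6 they were 0.52, 0.51 and 0.59. A set of 3 against 3 cannot reach a p below 0.1 in the exact test, and the p adjusted over the 3 genes was 0.1 within the first set and 0.15 to 0.2 within the second. The mean of class I genes contains the genes that fell. By itself it changed by -0.60 in ΔJ mice (p = 0.0022, the same exact test over 924 splits), while the 3 genes changed by -0.04, -0.05 and -0.01. The contrast therefore mostly repeats the fall of class I genes that the study had reported. It shows unequal change, and its p-values do not test a change of the 3 genes themselves.

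**Figure D3:**
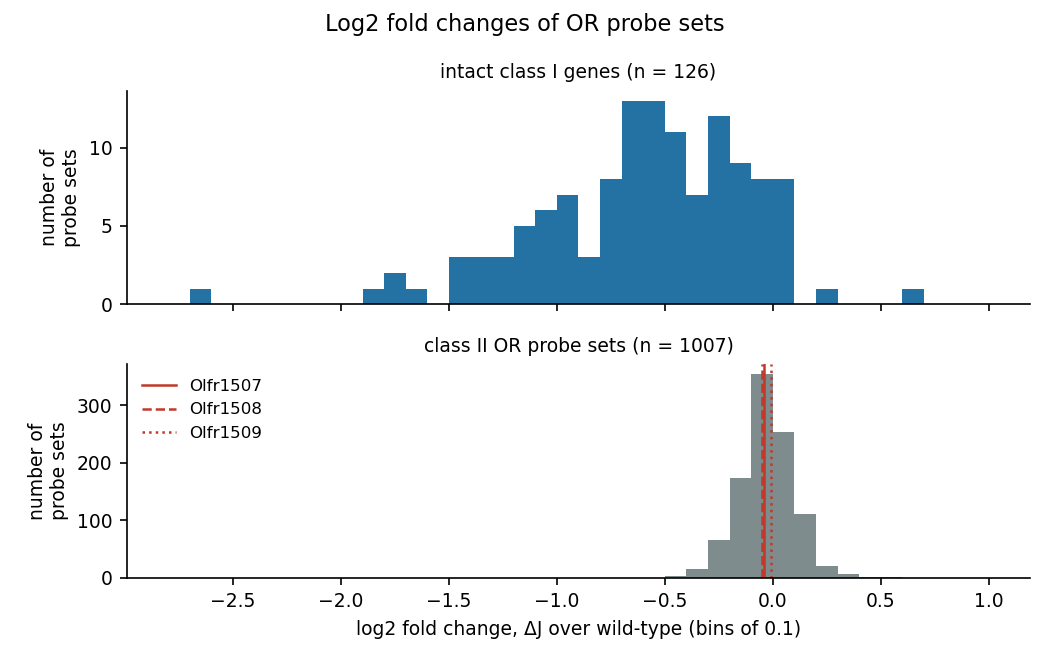
Number of probe sets (vertical axis) by log2 fold change of ΔJ over wild-type mice (horizontal axis, bins of 0.1) for 126 intact class I genes and 1007 class II OR probe sets, with lines at the 3 genes. The lines at -0.04, -0.05 and -0.01 stand in the centre of the class II distribution, whose median is -0.03, while the class I median is -0.53.

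Among class II genes the 3 values were unremarkable. Over 1007 class II OR probe sets the log2 fold change ran between -0.42 and 0.52 with a median of -0.03. The 39 class II probe sets on chromosome 14 had a median of 0.01, and the 32 of these outside the MOR28 cluster a median of 0.06, with 0 called. In the rest of the cluster, the log2 fold change was -0.18 for *Olfr1510* (88.3% of the wild-type signal, adjusted p = 0.993), -0.02 for *Olfr1512*, 0.01 for the probe set of *Olfr1510* and *Olfr1511*, and -0.05 for that of *Olfr1512* and *Olfr1513*. The non-OR genes next to the cluster on the side of *Olfr1513*, *Tox4*, *Mettl3* and *Sall2*, had log2 fold changes of 0.05, -0.002 and -0.08, with adjusted p of 0.993 or above. On the side of *Olfr1507*, the nearest with a probe set of a single symbol lie 274.2 to 1058 kb away. *Trav7d-4* was at 0.001, *Trav7n-5* at 0.08, and *Trav14-1* at -0.08 and -0.09 in its probe sets, and none was called. RefSeq lists these as V segments. Their mean levels in wild-type mice were low, between -5.36 and -4.26, so a change could go unseen. *Olfr17*, *Olfr713* and *Olfr714*, class II genes under the P element of chromosome 7, were at -0.14, -0.15 and 0.11 and did not pass the test either (adjusted p = 0.993 for each, limma).

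The levels of the 3 genes were spread more widely in ΔJ mice. The SD over the ΔJ mice was 2.42 times that over the wild-type mice for *Olfr1507*, 2.92 times for *Olfr1508* and 3.45 times for *Olfr1509*, beside a median ratio of 1.16 over class II OR probe sets, 8.14% of which were at or above 2.42. This spread came from ΔJ replicates 2 and 5, which were the lowest pair of the 12 mice for all 3 genes. The lowest value in the other 10 mice was 1.78 for *Olfr1507*, 0.91 for *Olfr1508* and -0.88 for *Olfr1509*. The same mice were the lowest pair in 1.39% of all probe sets, in 2.48% of class II OR probe sets (25 of 1007) and in 3.17% of intact class I genes. The 25 class II probe sets included the 3 genes themselves and other groups of neighbours, such as *Olfr328* and *Olfr330* on chromosome 11 and *Olfr1336*, *Olfr1347* and *Olfr1349* on chromosome 7. This pattern was noticed in the values and was not tested.

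Relative to the mean of *Olfr1507* in wild-type mice, ΔJ replicate 2 was at -0.32 and ΔJ replicate 5 at -0.61. The values were -0.26 and -0.66 for *Olfr1508*, and -0.36 and -0.54 for *Olfr1509*. Beyond *Olfr1509* these mice parted. ΔJ replicate 2 was at -0.07 for *Olfr1510* and -0.08 for *Olfr1512*, inside the wild-type range, and ΔJ replicate 5 was at -0.51 and -0.34, below it. The probe set that carries both *Olfr1510* and *Olfr1511* ran the other way, with ΔJ replicate 2 at -0.17, below the wild-type range of -0.10 to 0.09, and ΔJ replicate 5 at 0.25, above it. At the probe set of *Olfr1512* and *Olfr1513* they were at 0.14, inside the wild-type range, and -0.82, below it. The other 4 ΔJ mice lay at 0.03 to 0.30 for *Olfr1507*, 0.08 to 0.23 for *Olfr1508* and 0.11 to 0.35 for *Olfr1509*. Because these 4 were high and the others low, the median of the ΔJ mice was above that of the wild-type mice by 0.09, 0.12 and 0.16 for *Olfr1507*, *Olfr1508* and *Olfr1509*, whereas the means differed by -0.05 to -0.01. Without ΔJ replicate 5 the log2 fold changes were 0.07, 0.07 and 0.10 (adjusted p = 1.00 for each, limma).

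**Figure D4:**
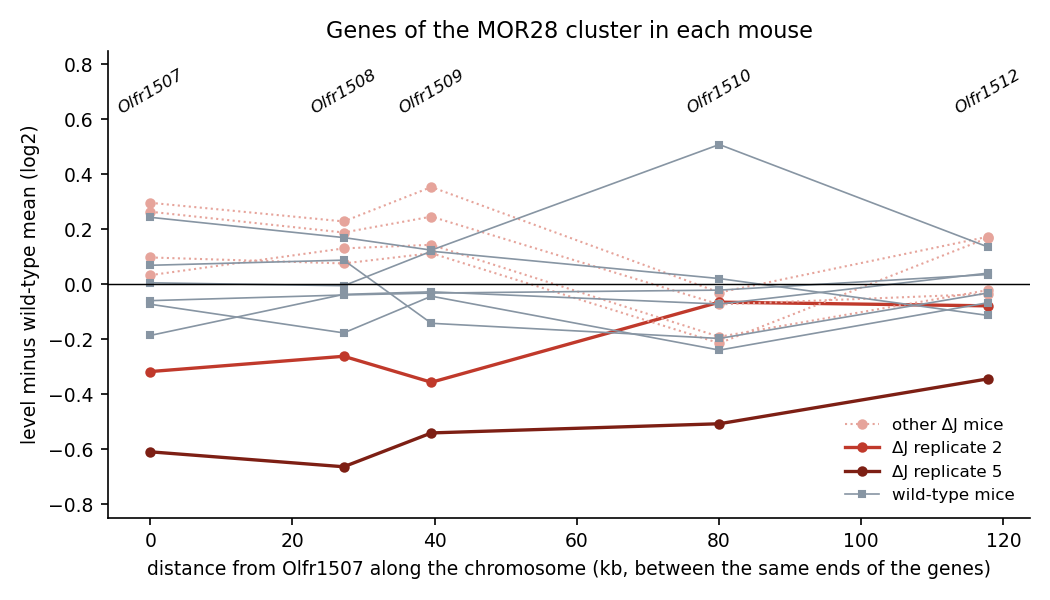
Level minus the wild-type mean (log2, vertical axis) of the 5 genes of the MOR28 cluster with a probe set of their own, by distance from *Olfr1507* along the chromosome (kb, horizontal axis). Each line is a mouse. ΔJ replicate 2 is low at the 3 genes nearest to the end of the cluster and within the wild-type range at *Olfr1510* and *Olfr1512*, and ΔJ replicate 5 is low at all 5.

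Values of other genes in these mice stand beside this spread, and their part in it was not tested. Taken relative to the mean level of class II OR probe sets in the same mouse, ΔJ replicates 2 and 5 were still the lowest pair, at 3.36 and 3.57 for *Olfr1507*, whereas the other ΔJ mice lay between 3.88 and 4.01 and the wild-type mice between 3.68 and 4.02. *Ncam2*, a cell adhesion gene of the ventral MOE, was at 1.72 in ΔJ replicate 2 and 0.90 in ΔJ replicate 5, and at 1.39 to 1.91 in the other mice. *Nrp2*, the other gene of the ventral list, was at 1.58 in ΔJ replicate 2, the highest of the 12 mice, and at 1.46 in ΔJ replicate 5, within the range of the others. *Nqo1*, an enzyme gene of the dorsal MOE, was at 1.70 in ΔJ replicate 2 and 2.27 in ΔJ replicate 5, and at 1.57 to 1.85 in the others. *Omp*, a marker of mature OSNs, was at 4.01 in ΔJ replicate 2 and 3.98 in ΔJ replicate 5, within the 3.88 to 4.05 of the others. The summed level of 8 mature OSN genes was 6.63 in ΔJ replicate 2 and 6.31 in ΔJ replicate 5, with 6.31 to 6.69 over the ΔJ mice and 6.60 to 6.66 over the wild-type mice.

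Across the 12 mice the 3 genes varied together. With genotype means removed, Pearson's r was 0.955 for *Olfr1507* and *Olfr1508*, 0.920 for *Olfr1507* and *Olfr1509*, and 0.911 for *Olfr1508* and *Olfr1509*. Spearman's rho was 0.958, 0.867 and 0.916 for these pairs. The permutation p was between 2.0e-05 and 8.0e-05 for r and between 2.0e-05 and 4.5e-04 for rho, or 6.0e-05 to 8.0e-05 and 6.0e-05 to 4.5e-04 after Benjamini-Hochberg adjustment over the 3 pairs. Without ΔJ replicates 2 and 5, which were farthest from the median, r was 0.883, 0.776 and 0.756 for these pairs in the same order. Within replicates 1 to 3 it was 0.998, 0.941 and 0.945, and within replicates 4 to 6 it was 0.949, 0.882 and 0.909. In the 6 wild-type mice alone it was 0.796, 0.411 and 0.291, and with the means of each array set removed as well it was 0.755, 0.099 and 0.003. The close relation of *Olfr1509* with the others thus rests on the ΔJ mice. The p-values test against no relation at all, and they shuffle mice whose spread differed between genotypes. They do not show that these genes are closer to each other than to other genes.

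**Figure D5:**
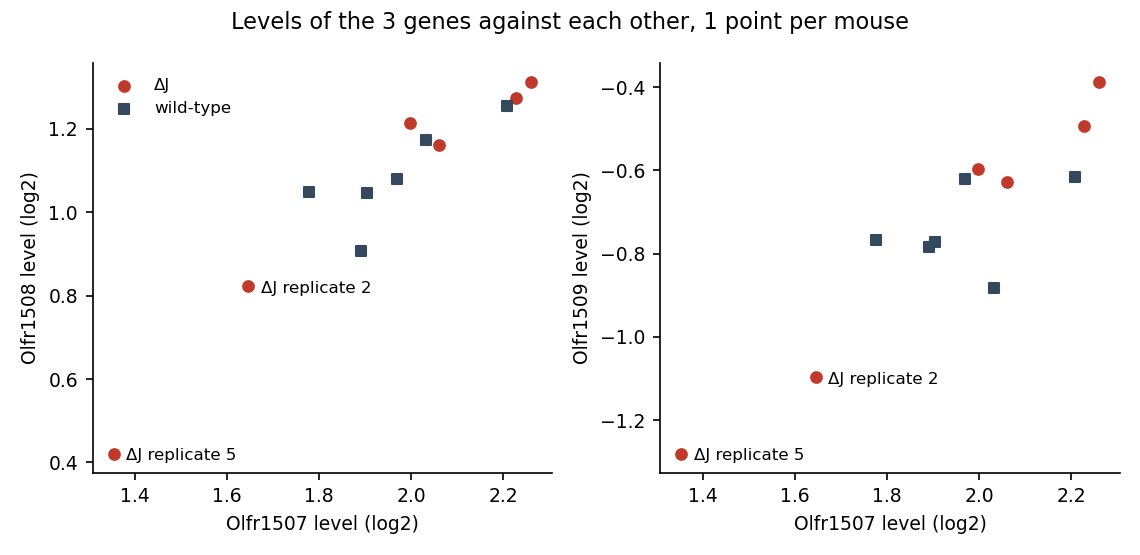
Level of *Olfr1508* (left panel) and *Olfr1509* (right panel) against the level of *Olfr1507* (all axes log2 signal relative to the 75th percentile of the array), 1 point per mouse, for ΔJ and wild-type mice. Pearson's r with genotype means removed is 0.955 on the left and 0.920 on the right, and ΔJ replicates 2 and 5 lie at the low end of both.

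OR genes with the most similar profile were sought among 1034 OR probe sets of a single symbol, with the means of each genotype within each array set removed. They are given as a description over 12 mice. For *Olfr1507* they were *Olfr446* on chromosome 6 (r = 0.958), *Olfr1508* (r = 0.951) and *Olfr1212* on chromosome 2 (r = 0.949). For *Olfr1508* they were *Olfr1507*, *Olfr1211* on chromosome 2 (r = 0.934) and *Olfr281* on chromosome 15 (r = 0.925). For *Olfr1509* they were *Olfr727* on chromosome 14 (r = 0.931), *Olfr1260* on chromosome 2 (r = 0.924) and *Olfr124* on chromosome 17 (r = 0.922). The most similar genes therefore included neighbours and genes on other chromosomes. Non-OR probe sets of a single symbol reached similar values. Their highest r was 0.948 with *Olfr1507*, 0.950 with *Olfr1508* and 0.923 with *Olfr1509*. Differences in tissue composition between mice can enter each value, and ΔJ replicate 5 contributes to it. Without ΔJ replicate 5, the r of these named genes lay between 0.765 (*Olfr281* with *Olfr1508*) and 0.936 (*Olfr1260* with *Olfr1509*).

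For none of the 3 genes did a difference by sex or array set pass the test at this number of mice. Males minus females gave 0.18 for *Olfr1507*, 0.16 for *Olfr1508* and 0.04 for *Olfr1509* on the log2 scale (adjusted p = 0.901, 0.901 and 0.967, limma with genotype). In that fit 0.0141% of all probe sets had an adjusted p under 0.05, with no fold threshold. The fold change between genotypes differed between males and females by -0.11, -0.06 and 0.10 (adjusted p = 1.00 for each, limma). Replicates 4 to 6 minus replicates 1 to 3 gave -0.18, -0.14 and -0.16 (adjusted p = 0.315, 0.426 and 0.379, limma), although 53.5% of class II OR probe sets differed between the sets. The difference of the genotype effect between the sets was -0.11, -0.12 and -0.03 (adjusted p = 0.965, 0.962 and 0.989, limma).

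The factors that act on OR enhancers were measured by 9 probe sets of 8 genes, and 0 of them passed the test. *Lhx2*, a homeodomain factor that binds the H element, averaged 3.11 ± 0.19 in ΔJ mice and 3.11 ± 0.20 in wild-type mice (SD, n = 6 each), and its cofactor gene *Ldb1* averaged 2.64 ± 0.06 in ΔJ mice and 2.65 ± 0.04 in wild-type mice. *Ebf1*, which encodes an OSN transcription factor, was at 3.34 in ΔJ replicate 2 and 2.63 in ΔJ replicate 5, and between 3.20 and 3.44 in the other mice. Of 9 probe sets for OR feedback, silencing and trafficking, 0 passed. The marker lists had 0 called probe sets of 2 for the ventral zone, 2 for the dorsal zone, 11 for mature OSNs, 4 for immature OSNs, 5 for basal and progenitor cells, 3 for sustentacular cells, 4 for respiratory epithelium and Bowman gland, 4 for immune cells, 2 for blood and endothelium, and 3 for ensheathing glia and olfactory bulb. Their median log2 fold changes lay between -0.09 and 0.10, beside -0.03 over all probe sets.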

How the data were processed

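The 12 arrays measured total RNA of the MOE, 1 mouse each. Values were deposited as log2 signals for 35556 probe sets. According to the submitters' processing notes they were made with Affymetrix Expression Console. Not given in the sources used here are its version and how background was corrected and probes were summarized. The methods of the study name a 75th percentile shift and a moderated test with Benjamini-Hochberg adjustment. The deposited log2 values precede that shift, because their genotype means equal the log2 of the unshifted means of a table of the study within 2.7e-05 over 1213 probe sets.

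The 75th percentile of each array was subtracted, and genotype was fitted over all probe sets with limma 3.58.1 (lmFit, eBayes) in R 4.3.3. A call needed an adjusted p under 0.05 and a change of more than 1.3-fold. Figures and permutation tests used Python 3.11.15 with scipy 1.17.1 and matplotlib 3.10.9, with 100000 permutations for correlations. Probe sets were named from the array annotation, in which 21789 carried 1 symbol, 1621 several and 12146 none, and genes were placed by RefSeq symbols. Summed levels are the log2 of summed linear signals. On simulated data made from these arrays, the fit over 35556 probe sets called 14% of true changes of 1.3-fold, 60% at 1.5-fold, 70% at 2-fold and 98% at 4-fold. The changed probe sets were drawn at random, with independent noise and without array sets. These shares are not those of the 3 genes. Their SD in ΔJ mice was 0.36, 0.35 and 0.36, beside a median of 0.19 over all probe sets. The number of arrays limits the precision. Among 66 pairs of arrays, 0 were identical.

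Replicate numbers came from the labels. The deviation from the genotype mean was correlated between the ΔJ and the wild-type mouse that carry one number, at 0.365, 0.294, 0.419, 0.441, 0.185 and 0.385 for replicates 1 to 6. The numbers were therefore treated as pairs, although the labels do not say that they match mice. Only in replicate 4 were both mice of the same sex. In replicate 5 a P30 female stood against a P33 male. Mice of one number fall in the same array set, whose difference was not removed here, and mice of different numbers were not compared. These correlations thus cannot tell matched mice from mice of one set. What else the mice of one number share is not given in the sources used here. Each mouse is 1 replicate.

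The genes and lists were chosen with earlier results of these data known. The named genes are the 3 genes, the other genes of their cluster, the P element genes, *Olfr544* and *Olfr552*, the nearest non-OR genes, the 3 OR genes most similar to each, and the first gene and any called gene of each list. *Ebf1*, *Nrp2*, the genes with the same lowest pair of mice and the list genes in which a single mouse stood far from the rest were named after their values were seen. The search for such mice covered all list genes. Alternatives covered the scaling, the probe sets fitted, a filter on dim probe sets, blocks and covariates, and leaving out mice. Promoter sequence of *Olfr1507* and protein sequences were not used here.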

Additional observations from a re-analysis of the deposited data

Results flagged for a closer look

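Values of a single mouse far from the other 5 of its genotype were sought in 156 groups of 6 mice, and 16 were found. The search covered 78 probe sets, of the MOR28 cluster, its neighbours, *Olfr544*, *Olfr552*, Y-linked *Kdm5d* and every measured gene of the lists, and not the OR genes with a similar profile. Chance alone marks about 1 in 20 such groups. For *Olfr1507*, *Olfr1508* and *Olfr1509* no mouse was marked, since 2 ΔJ mice were low together. In the MOR28 cluster, *Olfr1510* was at 0.507 in wild-type replicate 3, against -0.242 to 0.019 in the other wild-type mice. ΔJ replicate 5 was marked in 8 genes. It was low for *Ncam2* (0.896, against 1.487 to 1.797 in the other ΔJ mice), *Ebf1* (2.63, against 3.20 to 3.44), *Ebf3* (2.49, against 2.87 to 3.05), *Stoml3* (4.51, against 5.00 to 5.13), *Cnga4* (2.68, against 2.91 to 3.00), *Sec14l3* (4.03, against 4.22 to 4.24) and *Olfr713* (-1.55, against -1.28 to -1.20), and high for *S100b* (-0.54, against -0.83 to -0.72). ΔJ replicate 6 was low for *Lbr* (0.162) and high for *Ebf4* (2.32). In wild-type mice, *Sec14l3* was low in replicate 3 (4.01), *Stmn2* was low in replicate 2 (3.03), *Nqo1* was low in replicate 1 (1.58), *Emx2* was high in replicate 4 (0.452) and *Krt5* was high in replicate 6 (1.03).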

How the results depend on the processing

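None of the 3 genes passed the test under any of the 25 alternatives run for each, with adjusted p between 0.870 and 1.00 (limma), and class II OR probe sets were called 0 times under every one. The sign of the small log2 fold changes was not stable. With no shift *Olfr1509* was at 0.00563. With a median shift *Olfr1507* was at 0.00284 and *Olfr1509* at 0.0354, and with quantile normalization *Olfr1509* was at 0.00721. In replicates 1 to 3 alone the 3 genes were at 0.0178, 0.00982 and 0.0104. Relative to the class II mean, an alternative chosen after seeing the data, *Olfr1509* was at 0.0223. Leaving out 1 mouse at a time, *Olfr1507* lay between -0.106 and 0.0748, *Olfr1508* between -0.106 and 0.0724 and *Olfr1509* between -0.0789 and 0.10. The highest values were those without ΔJ replicate 5. The sign also turned without ΔJ replicate 2 (0.0164 for *Olfr1507* and 0.0632 for *Olfr1509*), without wild-type replicate 3 (0.00946 and 0.0181 for the same genes) and without wild-type replicate 1 (0.0173 for *Olfr1509*). With the replicate number as a block the values stayed at -0.04, -0.05 and -0.01 (adjusted p = 0.915, 0.896 and 0.982, limma), 45 class I genes were called, and the block changed no call of the 3 genes between genotypes. For the difference from the class I mean, the test within pairs, chosen after seeing the data, kept 0.551 for *Olfr1508* and lost its call (adjusted p = 0.0625, exact permutation test). The 95% intervals reached past a 1.3-fold change in 12 of the 25 alternatives for *Olfr1507*, 11 for *Olfr1508* and 5 for *Olfr1509*, and the widest, within a single array set, reached -0.64 and 0.46.

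Called class I genes numbered 44, and 64 with the array set as a block, 73 when OR probe sets were fitted alone, 18 among bright probe sets only, 26 in P30 mice only, 14 in replicates 1 to 3, 16 in replicates 4 to 6 and 31 to 40 when 1 mouse was left out. Apart from the block, fewer mice or fewer probe sets were tested in these. The difference from the class I mean no longer passed within replicates 1 to 3 (0.60, 0.60 and 0.60) and 4 to 6 (0.52, 0.51 and 0.59), where 3 against 3 mice cannot reach the threshold. Leaving out 1 mouse it lay at 0.518 to 0.642 for *Olfr1507*, 0.485 to 0.628 for *Olfr1508* and 0.535 to 0.689 for *Olfr1509*. Class I pseudogenes could not be added, since the annotation used names 0 among the class I probe sets.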
